A study of Mus musculus with 4 samples.

Results

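The plasminogen activators and the matrix proteases that keratinocytes use when they migrate were examined in cells cultured from mouse hair follicles. Members were taken by gene symbol from a list drawn up with earlier results of these data known, and comprised the urokinase gene Plau, its receptor gene Plaur, the tissue activator gene Plat, the serine protease inhibitor gene Serpine2, the matrix metalloproteinase genes Mmp9, Mmp13 and Mmp14, and the metalloproteinase inhibitor genes Timp1 and Timp2. All 9 were found among the 24346 gene symbols listed in each library. By mean FPKM as deposited, Plau was about 12 times as high after 48 passages as after 10 passages. Plaur was called higher as well, a call lost in 6 of 13 alternative settings against 2 for Plau. No member was called lower.

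RNA was sequenced from HFSCs of C3H/HeN mice at 2 passage numbers, 2 libraries after 10 passages (10p-HFSCs) and 2 libraries after 48 passages (48p-HFSCs). In the study's methods, HFSCs are the cells positive for both CD49f and CD34 that were sorted from adult dorsal skin, and they were passaged weekly in the serum-free medium M-CnT, which both groups shared. The labels name no transgene or treatment for either group. The passage number therefore stands for time in a serial culture, and it is not stated whether the 2 libraries of a group came from separate cultures, so that p-values measure the spread between libraries, which may be technical.

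Plasminogen is a circulating zymogen that urokinase and tissue-type plasminogen activator cut to the protease plasmin. Urokinase does this at the cell surface, held by its receptor, and plasmin degrades fibrin and matrix proteins and activates several metalloproteinases. Serpins block the activators and TIMP proteins block the metalloproteinases. In skin this system is known from the keratinocytes at wound edges, which turn on urokinase, its receptor and several metalloproteinases as they move.

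Levels are given as FPKM, fragment counts scaled by exon length and by the mapped fragments of the library, a scale on which genes can be compared with each other. The summed FPKM ranged from 581516 to 1414953 between libraries, with the highest sum in replicate 2 of 48p-HFSCs, and the relative depth read from steps between low values was lowest in the same library, at 46.7% of replicate 1 of 10p-HFSCs (167 of 927 genes compared shared that ratio). Of 12 keratinocyte and follicle stem cell markers 10 were tested, and the list summed to 4266 and 3498 in 10p-HFSCs against 13309 and 8318 in 48p-HFSCs. The basal keratins Krt5 and Krt14 made up most of these sums. Krt5 was at 1805 and 1473 in 10p-HFSCs against 8156 and 5120 in 48p-HFSCs. Krt14 was at 1423 and 1217 in 10p-HFSCs against 3896 and 2439 in 48p-HFSCs. For both genes 48p-HFSCs lay above without overlap, but neither was called (log2 difference 1.99 and 1.23, limma adjusted p = 0.18 and 0.28). Of the 2 genes of the sorted surface proteins, Itga6 (CD49f) was at 20.8 or more and called higher, at a log2 difference of 1.77, whereas Cd34 reached at most 0.234. Itgb4 was also called higher, at 1.01. Epcam (log2 difference -0.72, below without overlap), Col17a1 (-0.41), Cdh1 (0.36, above without overlap) and Trp63 (0.67) were not called. Of the follicle stem cell genes, Sox9 was called lower, at -1.71, Krt15 was at 425 and 18.8 in the 48p-HFSC replicates, and Lhx2 reached at most 0.024. The paper instead reports, by quantitative PCR, increased Sox9 and Lhx2 in 48p-HFSCs and maintained CD34 and Krt15. It also reports CD34 protein on most 48p-HFSCs. The cause of this difference was not tested. Of 10 dermal fibroblast markers, only Vim and Col1a2 passed the filter on low values. The list summed to 353 and 388 in 10p-HFSCs, nearly all from these 2 genes, and to 2.91 and 3.39 in 48p-HFSCs. Vim went from 284 and 327 to 2.35 and 3.08, and Col1a2 from 67.6 and 59.3 to 0 in both 48p-HFSC libraries. Both were called lower (log2 difference -6.37 and -6.01, limma adjusted p = 0.00056 for each). Dcn, Lum and Thy1 were listed at 0 in all 4 libraries. Of 7 leukocyte markers, Cd68 made up most of a summed FPKM of 8.60 and 7.96 in 10p-HFSCs against 56.7 and 80.4 in 48p-HFSCs, with Cd3e and Tyrobp at 0 throughout. The endothelial list summed to 0.292 to 2.58 and the melanocyte list to 1.24 to 11.7, the latter highest in replicate 2 of 48p-HFSCs. The part of these cell type markers in the results for the proteases was not tested.

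Groups were compared on the log2(FPKM + 1) scale with limma over the 11018 genes whose FPKM reached 1 in 2 or more libraries, and a gene was called at an adjusted p-value under 0.05 with a log2 difference of at least 1. Differences are 48p- minus 10p-HFSCs, and on this scale they understate changes of low genes. Of the 9 members, 6 passed the filter, 2 of these were called higher after 48 passages and 0 lower, and 3 of the 6 had an unadjusted p-value under 0.05, which 37.4% of all genes tested had. Over all genes tested, 10.8% were called higher and 9.15% lower, so the members' count of 2 in 6 stands against a background of that size. The median log2 difference was 0.55 over the 6 members and -0.03 over all genes tested. The groups did not overlap for 4 members, with 48p-HFSCs above for 2 and below for 2, which occurred for 31.7% and 34.3% of all genes tested. With each library rescaled to the same sum (TPM), 623 genes were called higher and 812 lower in place of 1189 and 1008, and the median of all genes moved to -0.56.

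**Figure D1:**
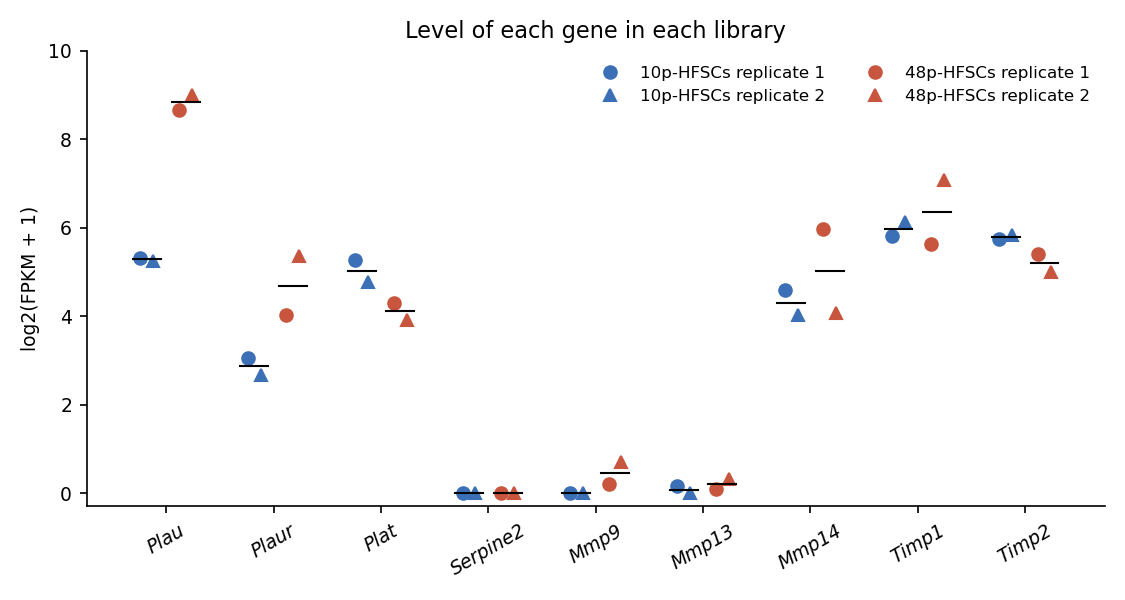
Level of the 9 genes as log2(FPKM + 1) in each library of 10p-HFSCs (blue) and 48p-HFSCs (red), with circles for replicate 1, triangles for replicate 2 and a bar at each group's mean. Plau stands apart between groups, Mmp14 and Timp1 spread widely between the 48p-HFSC libraries, and Serpine2, Mmp9 and Mmp13 lie at or near 0.

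Plau encodes urokinase (uPA), the activator that works at the surface of migrating keratinocytes. The gene (ENSMUSG00000021822.3, mm10 chromosome 14, 20836660 to 20843385, plus strand) overlapped no other gene of GENCODE M21. Its FPKM was 38.9 and 37.3 in 10p-HFSCs against 406 and 511 in 48p-HFSCs. Both 48p-HFSC libraries thus lay far above both 10p-HFSC libraries, and within each group the replicates lay close together. The means were 38.1 ± 1.20 (SD, n = 2) and 458 ± 74.4 (SD, n = 2), a ratio of 12.03. The log2 difference was 3.55 (standard error, SE, 0.29, adjusted p = 0.0014 in limma), and it ranked 130th among the 1189 genes called higher. Among all gene symbols Plau moved from rank 2154 and 2282 by level in 10p-HFSCs to rank 211 and 287 in 48p-HFSCs. In bulk RNA, more cells that make a transcript and more transcript per cell cannot be told apart. The call was lost without replicate 1 of 10p-HFSCs (adjusted p = 0.082, difference 3.58) and without replicate 2 of 10p-HFSCs (adjusted p = 0.081, difference 3.51), where the spread was estimated from the 48p-HFSC libraries. It was kept at a difference of 2.97 under TPM rescaling.

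The protein-coding genes next to Plau differed among themselves. On one side, Camk2g had an FPKM of 5.29 and 4.65 in 10p-HFSCs against 28.4 and 31.1 in 48p-HFSCs, a log2 difference of 2.37 (limma adjusted p = 0.0029). On the other side, Vcl had an FPKM of 26.2 and 16.5 in 10p-HFSCs against 20.1 and 18.0 in 48p-HFSCs, a log2 difference of -0.13 (limma adjusted p = 0.79). The 365 genes tested on chromosome 14, which holds Plau and Mmp14, had a median log2 difference of 0.44, and the part of this shift in the difference of Plau was not tested.

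Plaur encodes the urokinase receptor, a protein anchored in the membrane by a lipid. The gene (ENSMUSG00000046223.10, mm10 chromosome 7, 24462484 to 24475968, plus strand) had an FPKM of 7.37 and 5.38 in 10p-HFSCs against 15.3 and 39.9 in 48p-HFSCs. Both 48p-HFSC libraries were higher, but they differed from each other by a factor of 2.61. The means were 6.37 ± 1.412 (SD, n = 2) and 27.6 ± 17.4 (SD, n = 2), and the difference was 1.82 on the log2 scale (SE 0.47, adjusted p = 0.046 in limma). This call lay at the edge of the limit. It was lost in 6 of 13 alternatives, with adjusted p-values of 0.10 without the filter, 0.20 under TPM rescaling, 0.055 with a constant variance prior, 0.31 and 0.34 without replicate 1 or 2 of 10p-HFSCs, and 0.083 without replicate 2 of 48p-HFSCs. The difference itself stayed between 1.16 and 2.48 in the 13.

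Plat encodes tissue-type plasminogen activator, which is best known for dissolving fibrin in blood. The gene (ENSMUSG00000031538.6, mm10 chromosome 8, 22757727 to 22782844, plus strand) had an FPKM of 37.6 and 26.3 in 10p-HFSCs against 18.8 and 14.02 in 48p-HFSCs. Both 48p-HFSC libraries were below both 10p-HFSC libraries, opposite in direction to Plau. The means were 32.0 ± 7.96 (SD, n = 2) and 16.4 ± 3.37 (SD, n = 2), and the log2 difference of -0.91 (standard error 0.30, 95% interval -1.65 to -0.17, limma adjusted p = 0.083) did not pass the test. Plat was the third member with an unadjusted p-value under 0.05, at 0.023 in limma. The 565 genes tested on chromosome 8 had a median log2 difference of -0.61, and the part of this shift in the value of Plat was not tested.

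Within a library the ratio of 2 genes does not depend on how the library was scaled. Plau and Plat were nearly level in 10p-HFSCs, where Plau/Plat was 1.04 and 1.415, and far apart in 48p-HFSCs, where it was 21.6 and 36.4. Plau against Plaur stood at 5.28 and 6.93 in 10p-HFSCs against 26.5 and 12.8 in 48p-HFSCs. With 2 libraries in each group an exact permutation test of such a ratio cannot give a two-sided p-value below 0.333, so the ratios are given as a description.

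Serpine2 encodes protease nexin 1, which inhibits urokinase, tissue-type plasminogen activator and thrombin. The gene (ENSMUSG00000026249.10, mm10 chromosome 1, 79794197 to 79861180, minus strand) was listed at 0 in all 4 libraries, as were 7667 symbols in all. None of 26 genes that every cell uses, subunits of RNA polymerase II and of the proteasome core, was listed at 0 in any library. Serpinb2, by contrast, encodes PAI-2, a mostly intracellular urokinase inhibitor, and had an FPKM of 2.57 and 1.505 in 10p-HFSCs against 12.8 and 35.9 in 48p-HFSCs. It was called higher, with a log2 difference of 2.92 (SE 0.51, adjusted p = 0.014 in limma). The ratio Plau/Serpinb2 overlapped between groups, at 15.2 and 24.8 in 10p-HFSCs against 31.7 and 14.2 in 48p-HFSCs.

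**Figure D2:**
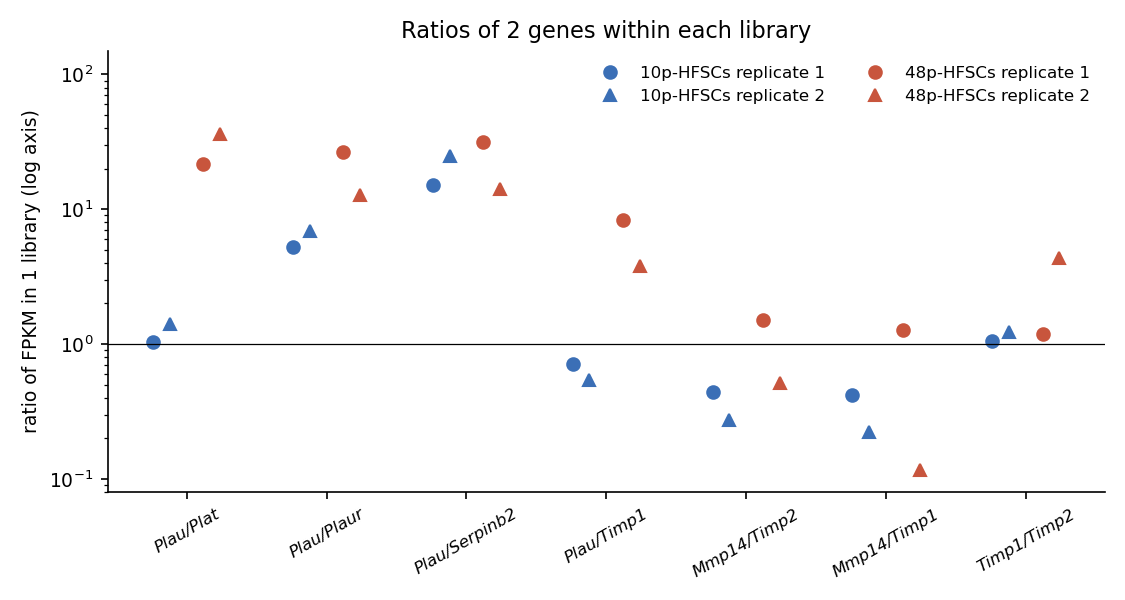
Ratio of the FPKM of 2 genes in the same library, on a log axis, for 10p-HFSCs (blue) and 48p-HFSCs (red), with circles for replicate 1 and triangles for replicate 2. Plau/Plat separates the groups most widely, from 1.04 and 1.415 in 10p-HFSCs to 21.6 and 36.4 in 48p-HFSCs, while Plau/Serpinb2, Mmp14/Timp1 and Timp1/Timp2 overlap.

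The rest of the plasminogen system was described by a list of 18 genes, of which 8 passed the filter. Of these, 1 was called higher and 1 lower, beside 10.8% and 9.15% of all genes tested. The median log2 difference was 0.48 against -0.03 over all genes tested. Serpinb2 was the gene called higher. Igf2r, whose product carries lysosomal enzymes to lysosomes and also binds plasminogen and the urokinase receptor, was the gene called lower, from an FPKM of 17.1 and 9.85 to 1.49 and 1.42, a log2 difference of -2.52 (SE 0.34, adjusted p = 0.0059 in limma). Plg, the plasminogen gene itself, was listed at 0 in all 4 libraries. The plasminogen receptor genes S100a10 and Plgrkt were present but not called. S100a10, which encodes a partner of annexin A2, spread from 1643 to 5480 within 48p-HFSCs and was called higher under TPM rescaling (log2 difference 1.30, limma adjusted p = 0.0062). Plgrkt went from 57.8 and 62.3 to 81.8 and 87.5, a log2 difference of 0.49 (95% interval -0.13 to 1.11).

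Among 6 genes of other serine proteases and their Kunitz-type inhibitors, 5 were tested. Of these, 2 were called higher and 0 lower, beside 10.8% and 9.15% of all genes tested. In limma 3 of the 5 had an unadjusted p-value under 0.05, against 37.4% of all genes tested, and they did not share a direction. St14 encodes matriptase, a membrane protease of epithelia that can activate pro-urokinase, and had an FPKM of 23.6 and 23.5 in 10p-HFSCs against 49.6 and 77.6 in 48p-HFSCs. Its log2 difference was 1.36 (SE 0.30, adjusted p = 0.028 in limma). Hgfac encodes hepatocyte growth factor activator, which is a secreted and not a membrane protease, and had an FPKM of 1.47 and 1.83 in 10p-HFSCs against 12.01 and 13.99 in 48p-HFSCs, a log2 difference of 2.40 (limma adjusted p = 0.0034). Prss8, the gene of the membrane protease prostasin, went the other way, at 14.5 and 15.3 in 10p-HFSCs against 10.5 and 4.99 in 48p-HFSCs, and was not called (log2 difference -0.94, limma adjusted p = 0.13). Neither St14 nor Hgfac was called under TPM rescaling, where the log2 difference was 0.79 for St14 and 2.03 for Hgfac (limma adjusted p = 0.25 and 0.082). Of the inhibitor genes, Spint1 was at 22.7 and 29.0 in 10p-HFSCs against 22.2 and 27.6 in 48p-HFSCs, a log2 difference of -0.05 (95% interval -0.72 to 0.61). Spint2 was at 109 and 131 in 10p-HFSCs against 149 and 361 in 48p-HFSCs, without overlap, and its log2 difference of 0.95 (95% interval -0.22 to 2.12) was not called. Without replicate 1 of 48p-HFSCs Spint2 was called higher (1.58, limma adjusted p = 0.022) and Prss8 lower (-1.41, limma adjusted p = 0.023).

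Of the 3 metalloproteinase genes among the members, 2 were at the edge of detection. Mmp9 encodes gelatinase B, which cuts denatured collagen and type IV collagen, and lies on mm10 chromosome 2 from 164940780 to 164955850 (ENSMUSG00000017737.2, plus strand). It stood at 0 in both 10p-HFSC libraries, against 0.159 and 0.634 after 48 passages. Mmp13 encodes collagenase 3 and lies on chromosome 9 from 7272514 to 7283331 (ENSMUSG00000050578.10, plus strand). It had an FPKM of 0.119 and 0 in 10p-HFSCs against 0.0716 and 0.254 in 48p-HFSCs. Neither passed the filter, and no fold change is given for them. Multiplied by the relative depth of each library, the Mmp13 values above 0 were 0.119, 0.0593 and 0.119, which is 2, 1 and 2 times the lowest to within 0.0144%. Whole steps are what small numbers of reads would give, but how many reads make up 1 step was not tested. The Mmp9 values treated the same way were 0.132 and 0.296, a multiple of 2.25 and so not whole. The number of reads behind these values was not tested either. Neither gene was tested, so these values do not show whether either one differed between groups.

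Mmp14 encodes MT1-MMP, the membrane-bound collagenase that activates the zymogen of MMP2 together with TIMP2. The gene (ENSMUSG00000000957.11, mm10 chromosome 14, 54431612 to 54445364, plus strand) had an FPKM of 23.0 and 15.3 in 10p-HFSCs against 61.8 and 15.7 in 48p-HFSCs. Replicate 1 of 48p-HFSCs was the highest library, and replicate 2 lay between both 10p-HFSC libraries. The means were 19.1 ± 5.502 (SD, n = 2) and 38.8 ± 32.6 (SD, n = 2). The log2 difference of 0.71 (standard error 0.63, 95% interval -0.83 to 2.26, limma adjusted p = 0.44) was smaller than the spread between the 48p-HFSC replicates. Its sign rested on 1 library, since the difference was -0.24 without replicate 1 and 1.67 without replicate 2 of 48p-HFSCs (limma adjusted p = 0.58 and 0.054). Mmp2, the gene of the zymogen that MT1-MMP activates, was at most 0.396 in 10p-HFSCs and stood at 0 after 48 passages.

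Of the 20 other metalloproteinase genes, 4 passed the filter, and their median log2 difference was -0.04. Among the 4, 1 was called higher and 1 lower, beside 10.8% and 9.15% of all genes tested. The 16 others stayed at an FPKM of 0.917 or less. Mmp10, the gene of stromelysin 2 and a product of keratinocytes at wound margins, was called higher, from an FPKM of 5.33 and 3.70 to 20.2 and 27.1, a log2 difference of 2.16 (SE 0.31, adjusted p = 0.0071 in limma). Under TPM rescaling the difference of Mmp10 was 1.67 and was no longer called (limma adjusted p = 0.13). Mmp15, the gene of the membrane protease MT2-MMP, was called lower, from 3.01 and 2.78 to 0.014 and 0.051, a log2 difference of -1.91 (limma adjusted p = 0.0038). Mmp10 and Mmp13 belong to a cluster of 10 metalloproteinase genes on chromosome 9, between 7272514 and 7699585. Within this cluster only Mmp10 exceeded an FPKM of 1 in any library, and the next highest was Mmp3, at 0.443 and 0.917 in 48p-HFSCs.

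Promoter sequences from RefSeq (GRCm38.p6) were available for 6 of the 9 members, Plaur, Serpine2, Mmp13, Mmp14, Timp1 and Timp2, and the 250 bases before the start were searched on both strands for the AP-1 motif TGANTCA. The motif was found in 2 of the 6 windows, those of Plaur and Mmp13, and in 6.75% of all 32851 promoter windows. Some called genes outside the members, Mmp10, Serpinb2, Hgfac, Mmp15 and Timp3, were searched too, and St14 had no window. Igf2r, Adam8, Adam12 and Adam15, which were also called, were not searched, so the genes searched are a chosen part of those called. The motif was in the windows of Mmp10 and Serpinb2, both called higher. It was absent from those of Hgfac, also called higher, and of Mmp15 and Timp3, both called lower. The windows of Plaur, of Mmp10 and of Mmp13 are shown as examples that hold the motif once, in capitals. Plaur and Mmp10 were called higher and Mmp13 stayed near 0.
Plaur, chr7:24462233-24462482, plus strand: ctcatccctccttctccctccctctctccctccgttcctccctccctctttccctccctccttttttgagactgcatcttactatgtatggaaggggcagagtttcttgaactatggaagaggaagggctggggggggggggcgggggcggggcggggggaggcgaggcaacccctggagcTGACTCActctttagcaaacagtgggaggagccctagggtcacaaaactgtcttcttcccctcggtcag
Mmp10, chr9:7502092-7502341, plus strand: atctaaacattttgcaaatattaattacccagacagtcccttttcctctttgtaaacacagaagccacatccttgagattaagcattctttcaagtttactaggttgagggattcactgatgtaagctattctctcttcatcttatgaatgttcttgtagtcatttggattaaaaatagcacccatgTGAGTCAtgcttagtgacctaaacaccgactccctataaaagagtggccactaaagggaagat
Mmp13, chr9:7272264-7272513, plus strand: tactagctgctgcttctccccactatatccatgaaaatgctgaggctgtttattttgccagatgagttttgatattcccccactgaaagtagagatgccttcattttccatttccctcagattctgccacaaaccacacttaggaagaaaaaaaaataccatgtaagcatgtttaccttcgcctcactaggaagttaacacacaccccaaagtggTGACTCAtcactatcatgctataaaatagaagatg
The motif began 69 bases before the start of Plaur, 63 before that of Mmp10 and 35 before that of Mmp13. Both metalloproteinase windows also held the letters TATAAA downstream of it, which occurred in 12.4% of all windows on either strand, and the Plaur window instead held GGGCGG, letters found in 32.7% of all windows. These matches are letters in a sequence and do not show binding.

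Timp1 and Timp2 encode secreted inhibitors that block most metalloproteinases, and TIMP2 also takes part in the activation of MMP2 by MT1-MMP. Timp1 (ENSMUSG00000001131.11, mm10 chromosome X, 20870166 to 20874735, plus strand) had an FPKM of 55.2 and 69.1 in 10p-HFSCs against 48.6 and 134 in 48p-HFSCs. The 48p-HFSC libraries were the lowest and the highest of the 4, with a group mean of 91.5 ± 60.7 (SD, n = 2) beside 62.1 ± 9.83 (SD, n = 2) in 10p-HFSCs. The log2 difference was 0.39 (standard error 0.50, 95% interval -0.84 to 1.61, limma adjusted p = 0.61). It was -0.34 without replicate 2 of 48p-HFSCs, and 1.11 and called higher without replicate 1 (adjusted p = 0.039). Timp1 lies within Syn1 on the opposite strand, and Syn1 had an FPKM of at most 0.119.

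Timp2 (ENSMUSG00000017466.9, mm10 chromosome 11, 118301069 to 118355740, minus strand) had an FPKM of 52.4 and 56.1 in 10p-HFSCs against 41.1 and 30.8 in 48p-HFSCs. Both 48p-HFSC libraries were lower, with means of 54.2 ± 2.64 (SD, n = 2) and 35.9 ± 7.32 (SD, n = 2). The log2 difference of -0.59 (standard error 0.27, 95% interval -1.25 to 0.06, limma adjusted p = 0.17) did not pass the test. Cep295nl lies within Timp2 on the same strand, and its reads could be counted with those of Timp2. The ratio Mmp14/Timp2 was 0.440 and 0.272 in 10p-HFSCs against 1.504 and 0.512 in 48p-HFSCs, without overlap, whereas Mmp14/Timp1 was 0.418 and 0.221 in 10p-HFSCs and both the highest and the lowest in 48p-HFSCs, at 1.27 and 0.117.

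The difference between replicates followed transcript length over all genes in both groups, and this touches the members unequally. On the log2(FPKM + 1) scale, replicate 2 minus replicate 1 of 48p-HFSCs had a median of 0.86 over the 594 genes whose longest transcript is under 1 kb and of -0.22 over the 3879 genes with one over 4 kb. In 10p-HFSCs the same medians were 0.38 and -0.17. Timp1, with a longest transcript of 883 bases, had a difference between these replicates of 1.45. Its log2 difference between groups turned to -0.28 after correction of each library for length and GC content. Plaur (2009 bases, 1.33) and Mmp14 (3238 bases, -1.91) lie in the class from 2 to 4 kb, whose median was 0.05, and so departed from their class in opposite directions. Plau (2342 bases) differed by 0.33.

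Other regulators of metalloproteinases were described by 8 genes, of which 4 were tested. Of these, 0 were called higher and 1 lower, beside 10.8% and 9.15% of all genes tested. Timp3 encodes the inhibitor that is bound to matrix and also blocks ADAM proteases, and it fell from an FPKM of 1.39 and 1.52 to 0.040 and 0.070, a log2 difference of -1.22 (SE 0.21, adjusted p = 0.014 in limma). Timp3 did not reach a mean FPKM of 1 over all libraries, and so was not tested under that filter. Furin encodes the convertase that activates MT1-MMP and differed little between groups, at 22.3 and 21.1 in 10p-HFSCs against 26.5 and 16.9 in 48p-HFSCs. Reck, a membrane-anchored metalloproteinase inhibitor, was listed at 0 in all libraries.

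Of 25 ADAM and ADAMTS protease genes, 8 were tested, with a median log2 difference of 0.21. Of these, 2 were called higher and 1 lower, beside 10.8% and 9.15% of all genes tested. Adam15, a metalloprotease with an integrin-binding disintegrin domain, rose from an FPKM of 8.72 and 9.99 to 29.8 and 32.3, a log2 difference of 1.63 (limma adjusted p = 0.0092). Adam8 rose from 14.3 and 12.002 to 31.3 and 54.5, a log2 difference of 1.58 (limma adjusted p = 0.025). Adam12 was called lower from 3.08 and 2.00 to 0.781 and 0.294, a log2 difference of -1.20 (limma adjusted p = 0.039). None of these 3 calls was kept under TPM rescaling, where the median of all genes was -0.56. The log2 differences there were 1.10 for Adam15, 1.03 for Adam8 and -1.59 for Adam12 (limma adjusted p = 0.24, 0.21 and 0.062). Of 13 alternatives, Adam12 was not called in 7, Adam8 in 5 and Adam15 in 3. Adam17, the sheddase of several growth factors, had a log2 difference of 0.19 (95% interval -0.58 to 0.96).

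**Figure D3:**
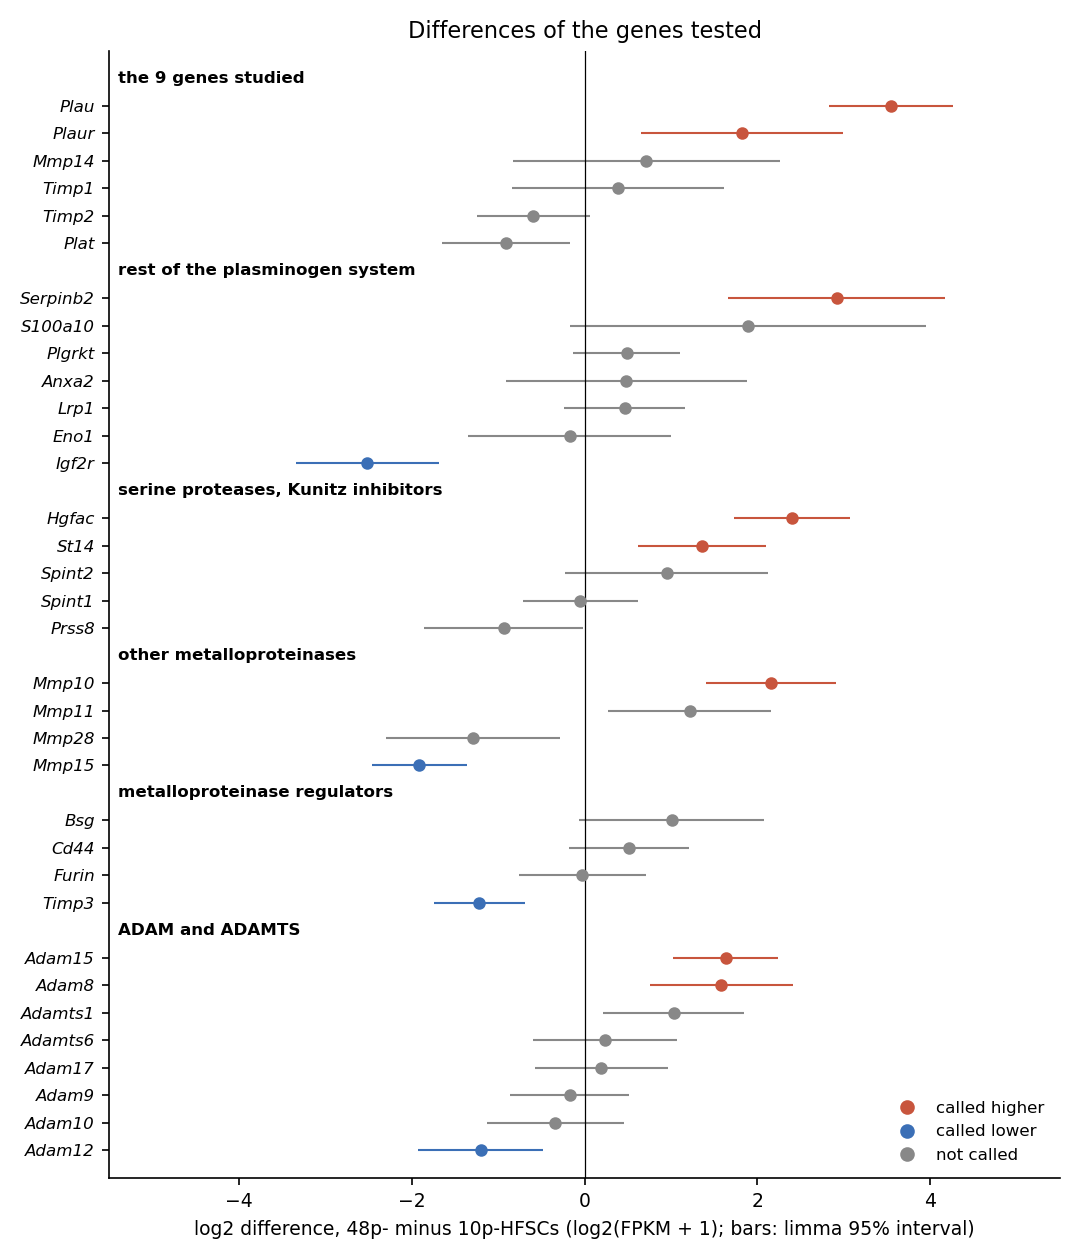
Log2 difference of the tested genes of the 6 groups, except 1 gene of the plasminogen system that is not reported here, 48p- minus 10p-HFSCs on the log2(FPKM + 1) scale, with the 95% interval from limma, in red where called higher, blue where called lower and grey where not called. Plau (3.55) and Serpinb2 (2.92) lie farthest to the right and Igf2r (-2.52) farthest to the left, and the intervals of Mmp14 and Timp1 span 0.

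By mean FPKM the order in 10p-HFSCs was Timp1 (62.1), Timp2 (54.2), Plau (38.1), Plat (32.0), Mmp14 (19.1) and Plaur (6.37), followed by Mmp13, with Mmp9 and Serpine2 at 0. Across the libraries the ranges of Timp1 and Timp2 overlapped, as did those of Plau and Plat. Within each library Timp1 was above Timp2, at a ratio of 1.05 and 1.23, and Plau was above Plat, at 1.04 and 1.415. These orders were not tested. In 48p-HFSCs the order was Plau (458), Timp1 (91.5), Mmp14 (38.8), Timp2 (35.9), Plaur (27.6) and Plat (16.4). Only Plau stood clear of its neighbour there, with its lower library at 406 against 134 in the higher library of Timp1. The libraries of Timp1 and Mmp14, of Mmp14 and Timp2 and of Plaur and Plat overlapped in 48p-HFSCs, and for Timp2 and Plaur the ranges of 30.8 to 41.1 and 15.3 to 39.9 overlapped too.

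**Figure D4:**
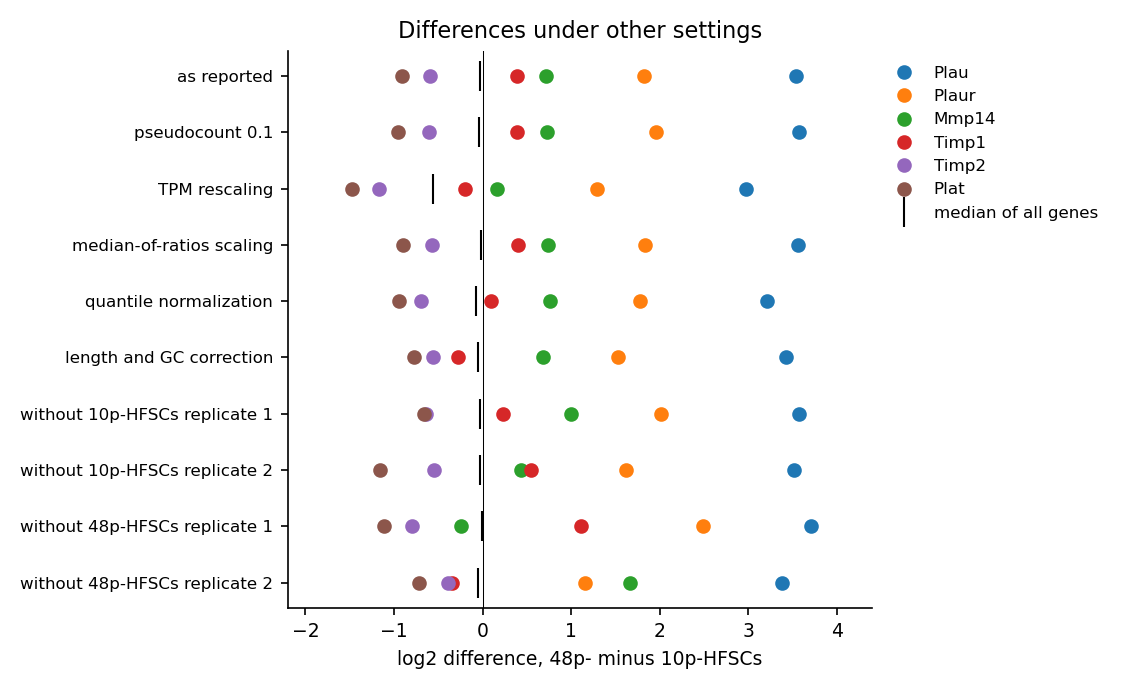
Log2 difference of the 6 tested members, 48p- minus 10p-HFSCs, as reported and under other settings, with a vertical tick at the median of all genes tested. Plau stays between 2.97 and 3.71 in these settings, TPM rescaling moves all genes to the left together with a median of -0.56, and Mmp14 and Timp1 change sign when a 48p-HFSC library is left out.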

How the data were processed

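The RNA was made into libraries with a stranded mRNA kit and read from a single end. The authors deposited FPKM values, 1 per gene symbol and library, computed with the Cufflinks suite after mapping to mm10. The submitters' processing notes list TopHat2 2.1.1, Bowtie2 2.2.8, SAMtools 0.1.18 and Cuffdiff 2.2.1, and the paper's methods give other versions of Bowtie2 and SAMtools. The annotation, the strand setting and the treatment of reads mapping to several places are not given in the sources used here. FPKM values carry no read totals, so relative depth was taken from the most common ratio of FPKM values under 0.3 to those of replicate 1 of 10p-HFSCs, and no counting interval is given.

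FPKM values were used as deposited, as log2(FPKM + 1), for genes whose FPKM reached 1 in 2 or more libraries. limma 3.58.1 in R 4.3.3 (variance trend, Benjamini-Hochberg adjustment over 11018 genes) compared the groups and was tested on simulated data. Positions and lengths came from GENCODE M21 on GRCm38, the assembly also called mm10. Members and lists were chosen with earlier results of these data known. All members and every called gene of each list are named, 1 gene counted in the list of the plasminogen system is not reported here, and Plg, S100a10, Plgrkt, Prss8, Spint1, Spint2, Mmp2, Mmp3, Furin, Reck, Adam17, Camk2g, Vcl, Syn1 and the promoter motifs were chosen after values were seen. Alternatives were other pseudocounts, filters, scalings and variance priors, no fold limit, a replicate block, and leaving out each library. The length and GC correction (splines with 4 degrees of freedom) and the ratio of means without a pseudocount were added after seeing the data.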

Additional observations from a re-analysis of the deposited data

How the results depend on the processing

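Under TPM rescaling 623 genes in all were called higher, with 1 member, 0 of the serine proteases and Kunitz inhibitors, 1 of the other metalloproteinases and 0 of the ADAM and ADAMTS proteases called. Without the filter on low values 637 genes were called lower, with 1 member called higher, 1 of the serine proteases and 1 of the ADAM and ADAMTS proteases called. With a mean FPKM of at least 1, 0 of the other metalloproteinase regulators were called, since Timp3 was then not tested. With a constant variance prior, and after correction for length and GC content, 1 member was called higher, Plau.

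Leaving out 1 library gave between 35 and 1936 genes called higher and between 140 and 1875 called lower, between 0 and 3 members called higher, between 0 and 4 serine proteases and Kunitz inhibitors, 0 to 4 other metalloproteinases, 0 to 2 other regulators, 0 to 3 genes of the rest of the plasminogen system and 0 to 3 ADAM and ADAMTS proteases. The lowest counts came without replicate 1 or 2 of 10p-HFSCs, where the spread rests on the 48p-HFSC libraries alone. A lone library is assumed to vary like the other group.

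The log2 difference of Timp1 changed sign under TPM rescaling (-0.20), under correction for length and GC content (-0.28, with and without the replicate block) and without replicate 2 of 48p-HFSCs (-0.34), and that of Mmp14 without replicate 1 of 48p-HFSCs (-0.24). Leaving out 1 library gave -0.34 to 1.11 for Timp1 and -0.24 to 1.67 for Mmp14. The causes were not tested. Plau was called in 11 of 13 alternatives, with a difference between 2.97 and 3.71, and Plat, Mmp14 and Timp2 in 0 of 13, with adjusted p-values from limma between 0.016 and 0.57, 0.054 and 0.90, and 0.044 and 0.57.

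Same-numbered libraries share only a number in the labels, and their deviations from group means correlated at 0.408 across genes. Under a replicate block 1613 genes were called higher and 1497 lower, the members called stayed at 2, Plau and Plaur, and 4 other metalloproteinases were called in place of 2. With this block and the length and GC correction 4 serine proteases and Kunitz inhibitors were called.

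The relative depth of 46.7% in replicate 2 of 48p-HFSCs limits the low genes most, Mmp9 and Mmp13 among the members.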
